A study of Neurospora crassa with 33 samples.

Results

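Ribosome-protected fragments (RPFs) and mRNA were compared genome-wide in glucose-grown mycelia of Neurospora crassa, a filamentous fungus, using only strains with the WT host. All WT libraries were taken, which gave 16 of the 33 libraries in the series: 12 RPF and 4 mRNA libraries. Each host strain carried 1 of 4 EDP reporters at the csr-1 locus under the ccg-1 promoter, named 1xWT-EDP, 3xWT-EDP, 1xOPT-EDP and 3xOPT-EDP. A reporter holds 1 or 3 copies of the EDP coding sequence (CDS), taken from NCU05784, with wild-type (WT) or optimized (OPT) codons. All WT strains therefore share an integration at csr-1, and none is free of a reporter. Each reporter strain gave 3 biological RPF replicates and 1 mRNA library, and each RPF profile was set against the mRNA library of its own strain. The cultures were started from conidia, stood for 2 days in medium with 2% glucose and were then shaken for 12 h in constant light. Cycloheximide, which arrests elongating ribosomes, was present at 0.1 mg/ml in the lysis buffer. The other 17 libraries came from Δcpc-3 strains with the same 4 reporters, which lack the eIF2α kinase CPC-3, and they are used here only to show where WT hyphae differ.

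In ribosome profiling, RNase removes mRNA that is not covered by a ribosome, and the fragments left behind count the ribosomes on each CDS. The ratio of RPF to mRNA of a gene, called its ribosome density, depends on how often ribosomes start and on how long each takes to reach the stop codon. A low density can thus belong to an mRNA that is seldom initiated, rapidly elongated or kept from ribosomes.

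Between 2803473 and 10036773 reads per RPF library fell on a CDS (median 6025256), and between 948524 and 1203434 per mRNA library, so mRNA reads set the precision of most densities. Levels are given in ppm: the reads per kilobase of a gene, scaled so that all genes of a library sum to 1000000. Of 9729 listed genes, 6917 reached a mean of 1 ppm in both assays and were tested, 2812 did not, and 2553 of those tested had at least 50 reads in every merged RPF profile and every mRNA library. The 7 hyphal markers, among them actin and the plasma membrane proton pump gene pma-1, were all tested and summed to 9361 to 11682 ppm in RPF and 9933 to 10290 ppm in mRNA. Of 7 conidial markers 5 were tested, with sums of 5054 to 7244 ppm in RPF and 5898 to 6551 ppm in mRNA, nearly all of it from ccg-1, con-8 and eas, while con-13 had no RPF in any library. Of 5 markers of sexual structures 3 were tested, with sums of 86.6 to 130.3 ppm in RPF and 132 to 210 ppm in mRNA, and ccg-4 and mfa-1 were at 0 throughout. The part of conidial or sexual cells in the densities was not tested, and in bulk mycelium fewer cells of a type and less RNA per cell cannot be told apart.

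RPF replicate 3 stood apart in every strain. The 78-nt CDS of NCU16635 took 0.296% to 0.362% of the signal in the 4 replicate 3 libraries, against 0.661% to 0.799% in the 8 libraries of replicates 1 and 2. Across genes, the deviations of replicate 3 libraries of different strains from their strain means correlated with r = 0.66 to 0.79 over 6 pairs. Over all 18 pairs of the same number and different strains, replicates 1 and 2 included, r was 0.39 to 0.79. Pairs of libraries with different numbers and different strains had a mean r of -0.24 over 36 pairs. The deviations of a strain cancel out, so this negative mean follows from the positive values and is no separate result. The labels do not say what the replicate numbers share. Results that rest on replicate 3 are therefore given with and without it.

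RPF followed mRNA closely. Pearson's r between log2 RPF and log2 mRNA across the 6917 genes, which are not independent replicates, was 0.909 to 0.933 within the 4 strains, and it was 0.977 to 0.981 across the 2553 genes with at least 50 reads. The RPF of a strain correlated with the mean mRNA of the other 3 strains at 0.964 to 0.969, above its correlation with its own single mRNA library. The log2 levels of the 2553 deeper genes had an SD of 1.94 to 1.96 in RPF and 1.77 to 1.79 in mRNA. Among these genes RPF was thus spread wider, but the set was in effect chosen on mRNA reads. Only 2 of 2555 genes with at least 50 mRNA reads in every library fell short in RPF. Across all 6917 genes the SDs were 2.32 to 2.34 in RPF and 2.27 to 2.46 in mRNA. There mRNA was the wider in the 3xWT-EDP and 3xOPT-EDP strains. The 10 most abundant genes held 20.8% to 22.5% of the RPF signal and 17.4% to 19.0% of the mRNA signal, with no overlap between the assays. The top 100 held 43.0% to 44.5% and 39.1% to 40.1% in RPF and mRNA, and the top 1000 held 82.4% to 83.2% and 79.0% to 79.8%.

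**Figure D1:**
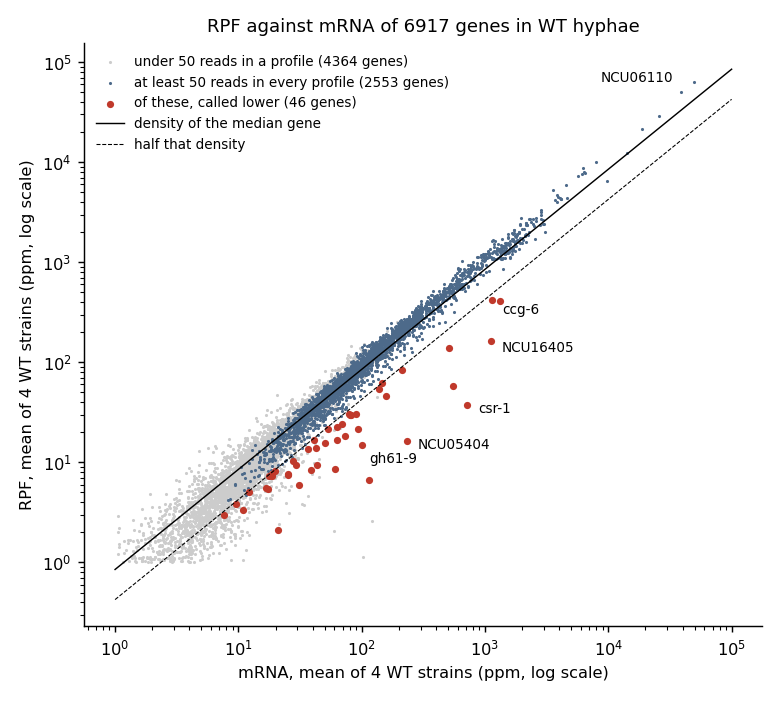
Mean RPF level (vertical axis) against mean mRNA level (horizontal axis) of 6917 genes in WT hyphae, both in ppm on log scales. Grey points have under 50 reads in some profile, blue points at least 50 in all, and red points are the 46 of these called lower than the median gene. The solid line marks the density of the median gene and the dashed line a 2-fold lower density. Genes with the highest mRNA lie mostly above the solid line, and csr-1 lies far below it.

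The density of each gene was expressed on the log2 scale relative to the median gene of the same strain, so 0 is the median and all signs below are relative to it. Before that centring the medians were -0.27, -0.18, -0.23 and -0.25 in the 1xWT-EDP, 3xWT-EDP, 1xOPT-EDP and 3xOPT-EDP strains. Density was higher at higher mRNA levels when the level was taken from the other 3 strains, so that counting error was not shared. Genes with 1 to 10 ppm of mRNA had a median log2 density of -0.43 to -0.23 over the 4 strains. Genes with 100 to 300 ppm had 0.16 to 0.22, genes with 300 to 1000 ppm had 0.21 to 0.31, and genes with at least 1000 ppm had 0.16 to 0.32.

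Few genes departed from the median density by more than 2-fold. With limma over the 4 strains and Benjamini-Hochberg adjustment across 6917 genes, 165 genes (2.39%) were called lower than the median gene at an adjusted p below 0.05 and a ratio below 0.5. Only 3 genes (0.0434%) were called higher, at a ratio above 2. On adjusted p alone 281 genes (4.06%) were lower and 69 (0.998%) higher. All 165 lower genes had the same sign in all 4 strains. Their median CDS was 1956 nt, against 1386 nt for all tested genes, and their median mRNA support was 33.2 reads per library. Without RPF replicate 3 the calls in both directions came to 172 genes, and from replicate 3 alone to 112, against 168 from all replicates. The calls needed all 4 strains. Without the 1xWT-EDP strain 5 genes were called, all lower, and without the 3xWT-EDP, 1xOPT-EDP or 3xOPT-EDP strain limma called 0 genes, with 307, 298 and 270 genes still lower past 2-fold at an unadjusted p below 0.05, and 28, 28 and 22 higher.

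The depth of the mRNA library set how far a density could be read. Among 900 genes with under 10 mRNA reads on average, densities of different strains correlated at r = -0.00 to 0.08. The correlation was 0.24 to 0.40 among 1833 genes with 10 to 30 reads, 0.54 to 0.63 among 2464 genes with 30 to 100 reads, 0.77 to 0.80 among 1110 genes with 100 to 300 reads and 0.91 to 0.92 among 467 genes with 300 to 1000 reads. Means above 2-fold were found in 220 genes, of which 209 had under 10 mRNA reads. No gene with at least 50 reads everywhere had a mean above 2-fold. The means of 294 genes lay below a ratio of 0.5, of which 71 had under 10 mRNA reads. The 3 genes called higher were NCU04182 with a log2 density of 1.09, NCU00570 with 1.23 and NCU06062 with 1.27, and their lowest mRNA library held 15, 4.5 and 1.5 reads.

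**Figure D2:**
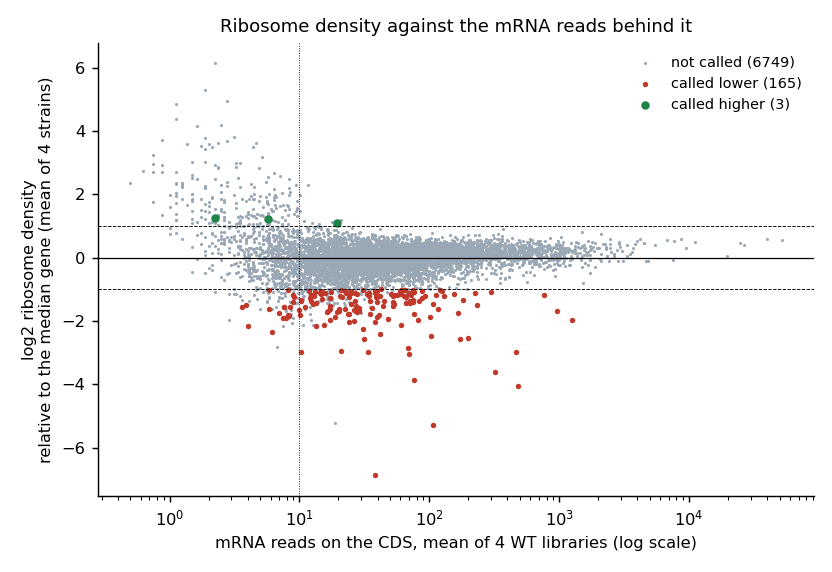
Mean log2 ribosome density relative to the median gene (vertical axis) against the mean number of mRNA reads on the CDS in the 4 WT libraries (horizontal axis, log scale). Dashed lines mark 2-fold above and below the median gene and the dotted line marks 10 reads. The scatter is widest on the left, where the 3 genes called higher lie, and the 165 genes called lower extend to the well-covered right side.

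Limited to the 2553 genes with at least 50 reads, a choice made after the data were seen, the density of a gene varied less between strains. The median SD between strains was 0.16 on the log2 scale, against 0.31 over all tested genes, while the means of these genes spread with an SD of 0.39. In a fit of these genes alone 800 (31.3%) were higher and 397 (15.6%) lower on adjusted p, most of them by less than 2-fold. The reference was still the median of all 6917 tested genes, so these 2 counts do not describe a skew within the 2553. Past 2-fold, 47 of them (1.84%) were lower and 0 were higher by limma, although 929 were higher at an unadjusted p below 0.05.

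With all replicates merged, the lowest well-covered density belonged to csr-1, the cyclophilin gene whose locus holds the reporter. The cassette was targeted there by double homologous recombination, and transformants were screened for cyclosporin A resistance. The values of csr-1 are therefore not those of a gene at an unaltered locus, and how much of its CDS remains is not stated. Its RPF level was 0.466 ppm in the lowest, 38.3 ppm at the median and 71.2 ppm in the highest of 12 libraries, against 603, 832, 709 and 713 ppm of mRNA in the 1xWT-EDP, 3xWT-EDP, 1xOPT-EDP and 3xOPT-EDP strains. Every RPF library lay below every mRNA library. The log2 density was -4.06 ± 0.20 (SD, n = 4 strains; limma adjusted p = 0.00555), that is 6% of the median gene. The RPF libraries differed widely at this gene. Replicates 1 and 2 had 27.6 to 71.2 ppm (131.5 to 324 reads), whereas replicate 3 had 0.466, 0.832 and 0.806 ppm in the 1xWT-EDP, 3xWT-EDP and 1xOPT-EDP strains, 1.5 reads each, and 11.7 ppm (23 reads) in the 3xOPT-EDP strain. Without replicate 3 the log2 density of csr-1 was -3.73, no longer the lowest, since NCU08055 then had -3.81. From replicate 3 alone csr-1 had -8.63, a value that rests on those few reads.

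The other 9 of the 10 lowest genes that were called, had the same sign in all strains and had at least 50 reads everywhere reached log2 densities of -3.85 to -1.98. NCU08055 had RPF levels of 4.95, 6.59, 8.23 and 6.94 ppm against mRNA levels of 144, 103, 111 and 100.3 ppm in the 4 strains in the order above, a log2 density of -3.85 ± 0.48 (SD, n = 4; limma adjusted p = 0.00983). NCU05404 had 22.2, 16.1, 13.1 and 13.3 ppm of RPF against 280, 245, 169 and 238 ppm of mRNA, a log2 density of -3.62 ± 0.25. These genes had abundant mRNA and only 6.91% and 8.15% of the RPF per mRNA of the median gene.

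NCU03600 combined a high mRNA level, 574, 636, 549 and 424 ppm, with 57.3, 55.1, 60.1 and 57.8 ppm of RPF, and its log2 density was -2.99 ± 0.30 (SD, n = 4). The short CDS of NCU16405, 177 nt, had 156, 155, 192 and 151 ppm of RPF against 1130, 992, 1129 and 1230 ppm of mRNA, a log2 density of -2.54 ± 0.18. At the other end of CDS length, NCU02793 with 32220 nt had 7.83, 8.34, 8.91 and 8.33 ppm of RPF against 42.2, 39.2, 36.3 and 38.6 ppm of mRNA, a log2 density of -1.98 ± 0.15. Low density was thus present in CDS of very different lengths. A member of the lytic polysaccharide monooxygenase family, gh61-9, had 18.0, 14.1, 15.3 and 12.8 ppm of RPF against 115, 116, 71.7 and 101 ppm of mRNA, a log2 density of -2.48 ± 0.38. The remaining 3 were NCU00545 at -3.03, NCU02637 at -2.57 and NCU07079 at -2.12. In each of the 10 genes every RPF library lay below every mRNA library in ppm. The genes were chosen for low RPF over mRNA, which favours this, so the count is a description. The same held for 15.5% of all tested genes, while 1.21% had every RPF library above every mRNA library.

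Genes with a known function among the 165 were chosen for naming after their values were seen. The copper metallothionein gene cmt had 499, 382, 344 and 432 ppm of RPF against 1272, 1449, 1277 and 1302 ppm of mRNA in the 4 strains, a log2 density of -1.45 ± 0.31 (SD, n = 4; limma adjusted p = 0.0263). The clock-controlled gene ccg-6 had 413, 437, 421 and 415 ppm of RPF against 1166, 1187, 1186 and 1007 ppm of mRNA, a log2 density of -1.19 ± 0.11. Also called lower were dcl-1, which encodes a Dicer-like ribonuclease, at -1.99, qde-3, a RecQ-type helicase of quelling, at -1.01, and dim-2, the DNA methyltransferase, at -1.04. Genes of the mismatch repair families, msh1 and mlh-1, had log2 densities of -1.25 and -1.05, nox-2, an NADPH oxidase, had -1.20 and qa-1S, the repressor of the quinic acid cluster, had -1.10. The mRNA reads of dcl-1 and qde-3 were 21.5 to 30.5 and 28.5 to 35 per library.

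A few genes had mRNA with next to no RPF. Of 2555 genes with at least 50 mRNA reads in every library, 2 had under 50 reads in a merged RPF profile. NCU16460 had 169, 163.5, 98 and 99.5 mRNA reads and 7, 0, 0 and 0 RPF reads in the 4 strains, and it was not tested because its mean RPF was below 1 ppm. NCU17100 had 137, 101.5, 98 and 93 mRNA reads against 32, 40, 23 and 59.5 RPF reads in libraries that are several times deeper, a log2 density of -5.28 ± 0.51 (SD, n = 4; limma adjusted p = 0.00777). Among all listed genes 8160 had a read in both assays, 890 in mRNA only, 160 in RPF only and 519 in neither.

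At the upper end no well-covered gene passed 2-fold. Of the 12 highest, picked by their values, 7 passed on adjusted p alone in the fit of all genes and 5 missed it, at limma adjusted p-values of 0.0506 to 0.0768. NCU05567 had 951, 1042, 1122 and 1025 ppm of RPF against 532, 626, 723 and 732 ppm of mRNA, a log2 density of 0.91 ± 0.15 (SD, n = 4; limma adjusted p = 0.0295). The gene ccg-14, which encodes a cerato-platanin-type secreted protein, had 5063, 4757, 6347 and 5070 ppm against 3241, 3588, 3953 and 3487 ppm, a log2 density of 0.80 ± 0.15. The hydrophobin gene eas, whose product coats conidia, had 1266, 678, 632 and 866 ppm against 828, 469, 555 and 556 ppm, a log2 density of 0.73 ± 0.22. The glutathione S-transferase gene gst-1 had a log2 density of 0.74 ± 0.28 with an adjusted p of 0.0594 by limma, above the threshold.

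The 10 genes with the largest RPF shares were chosen by RPF, the numerator of density, which favours high densities, so their counts are a description. Of these 9 lay above the median density in all 4 strains, as did 20% of all tested genes. NCU06110 took 6.28% ± 0.273 of the RPF signal and 5% ± 0.240 of the mRNA signal (SD, n = 4 strains), with a log2 density of 0.57 and a limma adjusted p of 0.0435. The thiamine biosynthesis gene nmt-1 took 4.98% ± 0.172 of RPF and 3.89% ± 0.158 of mRNA. Glyceraldehyde-3-phosphate dehydrogenase, gpd-1, took 2.92% ± 0.204 and 2.59% ± 0.140, and aldolase, fba, took 1.01% ± 0.0191 and 0.790% ± 0.0325. Of the 10 genes 6 were enzymes of glycolysis or fermentation, namely gpd-1, emp-7 (enolase), fba, adh-1 (alcohol dehydrogenase), cfp (pyruvate decarboxylase) and pgk (phosphoglycerate kinase). In 7 of the 10 every RPF library exceeded every mRNA library, as in 1.21% of all tested genes. The exception in density was tef-1, the elongation factor that delivers aminoacyl-tRNA to the ribosome, with 1.24% ± 0.0959 of RPF and 1.41% ± 0.112 of mRNA, a log2 density of 0.05 and strain values from -0.03 to 0.12.

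**Figure D3:**
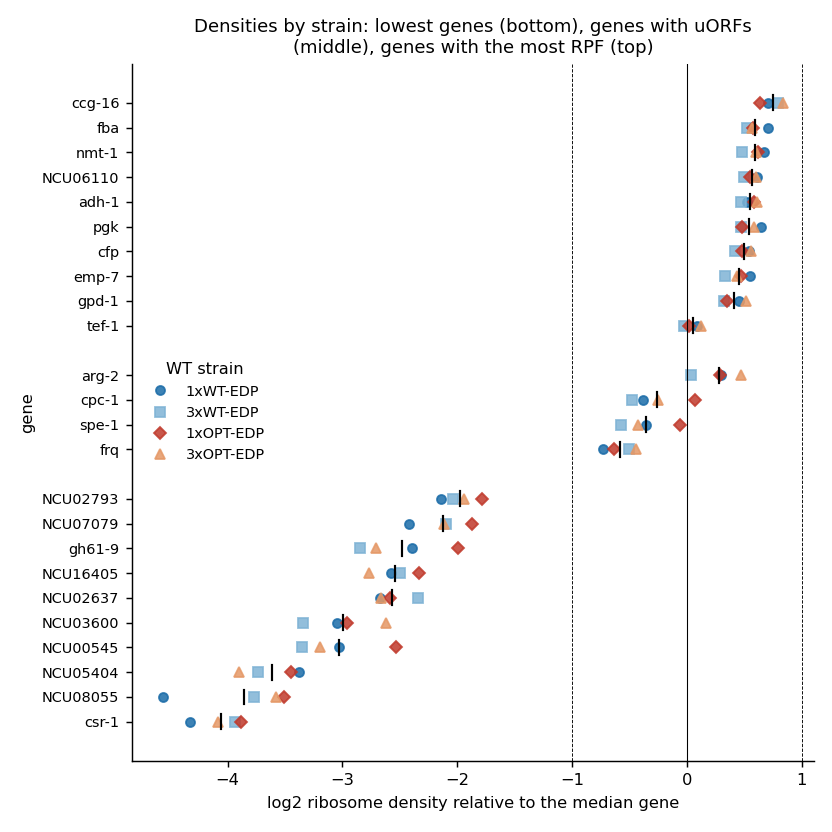
Log2 ribosome density relative to the median gene (horizontal axis) of named genes in each of the 4 WT strains (symbols), with black ticks for the mean. The 10 lowest genes with at least 50 reads are at the bottom, 4 genes with upstream open reading frames (uORFs) in the middle and the 10 genes with the largest RPF shares at the top. Dashed lines mark 2-fold. The lowest genes lie between -4.56 and -1.79 in single strains and ccg-16, at the top, between 0.64 and 0.84.

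The enzymes of glycolysis and fermentation, which turn glucose into pyruvate and ethanol, stood highest among the lists. Of 11 tested members, 10 were above the median gene in all 4 strains, against 20% of all tested genes, and 5 passed on adjusted p alone (fba, adh-1, pgk, gpi-1 and cfp), all higher. None of the 11 passed the 2-fold rule with limma. At an unadjusted p below 0.05, 9 were higher, as were 936 of all 6917 tested genes. In the fit of the 2553 deeper genes, which held 10 of the 11 members, 929 were higher. The median log2 density of the list was 0.45, with strain medians of 0.34 to 0.52, against 0.03 over all tested genes. As a group they took 8.98% of RPF and 7.62% of mRNA. The highest member was fba at 0.59 ± 0.08 (SD, n = 4) and the lowest pmg, at -0.43 ± 0.51 with 9 mRNA reads per library. Without centring all densities are lower by the strain medians given above, and the median of this list stayed above 0 in that form and in every other alternative run.

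The proteasome, the protease that degrades ubiquitin-tagged proteins, was the most even list. Of 29 subunits 28 lay above the median gene in all 4 strains and 0 below it in all 4, and 2 passed on adjusted p alone. None passed 2-fold by limma. At an unadjusted p below 0.05, 26 were higher, as were 936 of all 6917 tested genes. In the fit of the 2553 deeper genes, which held all 29 subunits, 929 were higher. The subunits ranged from 0.20 for rpn-2, a large subunit of the regulatory particle, to 0.58 for rpn-9, with a median of 0.38. For rpn-9 the RPF levels were 174, 180, 178 and 188 ppm against 139, 142, 145 and 139 ppm of mRNA (limma adjusted p = 0.0441). The list took 0.645% of RPF and 0.583% of mRNA, and its median was above 0 in every alternative.

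Subunits of the respiratory chain also tended to lie above the median. Of 29 subunits of complex I, the NADH dehydrogenase of mitochondria, 14 were above it in all 4 strains and 0 below, with a median of 0.23, nuo29.9 lowest at -0.16 and nuo10.4 highest at 0.67. None passed 2-fold by limma and 1 passed on adjusted p alone. At an unadjusted p below 0.05, 11 were higher, as were 936 of all 6917 tested genes. In the fit of the 2553 deeper genes, which held 28 of the 29 subunits, 929 were higher. Without centring the median of complex I was -0.00. Of 11 members of the later complexes and ATP synthase, 8 were above the median in all 4 strains and 1 below, with a median of 0.34. The ATP synthase β subunit gene atp-2 was lowest at -0.11 and cyt-1 highest at 0.74 ± 0.64 (SD, n = 4), from 16.6 mRNA reads per library. None of these 11 passed on adjusted p, and 8 were higher at an unadjusted p below 0.05, to be read against the same 2 shares.

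Cytosolic ribosomal proteins, by contrast, had densities near that of the median gene in spite of their high mRNA level. Their median was 0.05 over 40 tested genes, and the group took 5.55% of RPF and 6.13% of mRNA. Above the median in all 4 strains were 16 (40%) and below it 2 (5%), against 20% and 19.1% of all tested genes. The lowest was un-25 at -0.23 and the highest NCU04172 at 0.69. Genes of ribosome biogenesis had a median of 0.05 over 40 genes, from -0.34 for NCU08728 to 1.07 for NCU00812, and mitochondrial ribosomal proteins 0.02 over 31 genes, from -0.73 for NCU06542 to 0.63 for cyt-21. In each of these 3 lists 1 gene passed on adjusted p alone and 0 passed 2-fold by limma. An unadjusted p of 0.05 was passed as higher by 9, 7 and 5 genes and as lower by 1, 1 and 4, in the order above. Of all 6917 tested genes 936 passed it as higher and 1099 as lower. In the fit of the 2553 deeper genes, which held 39, 25 and 2 of the members, 929 were higher and 459 lower. The sign of these 3 medians depends on the centring and the minimum: without centring, or with a minimum of 10 ppm, they are negative. The median of the mitochondrial ribosomal proteins is also negative without replicate 3 and among genes with at least 50 reads.

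Histones had a median of 0.23 over 9 genes, with the variant hH4v lowest at -0.62 and hH2A highest at 0.39. Chaperones had 0.20 over 11 genes, with hsp90a at 0.57, and proton and calcium pumps 0.18 over 21 genes, from -0.47 for ph7 to 0.42 for vma-3, a subunit of the vacuolar ATPase. Without centring the medians of these 3 lists lie at or just below 0, and that of chaperones is also negative with FPKM. Amino acid biosynthesis had a median of 0.03 over 58 genes, negative without centring, with FPKM and with a minimum of 10 ppm, 22 above and 11 below the median gene in all 4 strains. Within it leu-1, of leucine synthesis, was highest at 0.44 and asn-2, the asparagine synthetase gene, lowest at -1.23 ± 0.74 with 5.5 to 13 mRNA reads. No member of these 4 lists was called by limma past 2-fold. At an unadjusted p below 0.05 there were 30 higher and 8 lower, against 936 and 1099 of all 6917 tested genes. In the fit of the 2553 deeper genes these counts were 929 and 459.

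**Figure D4:**
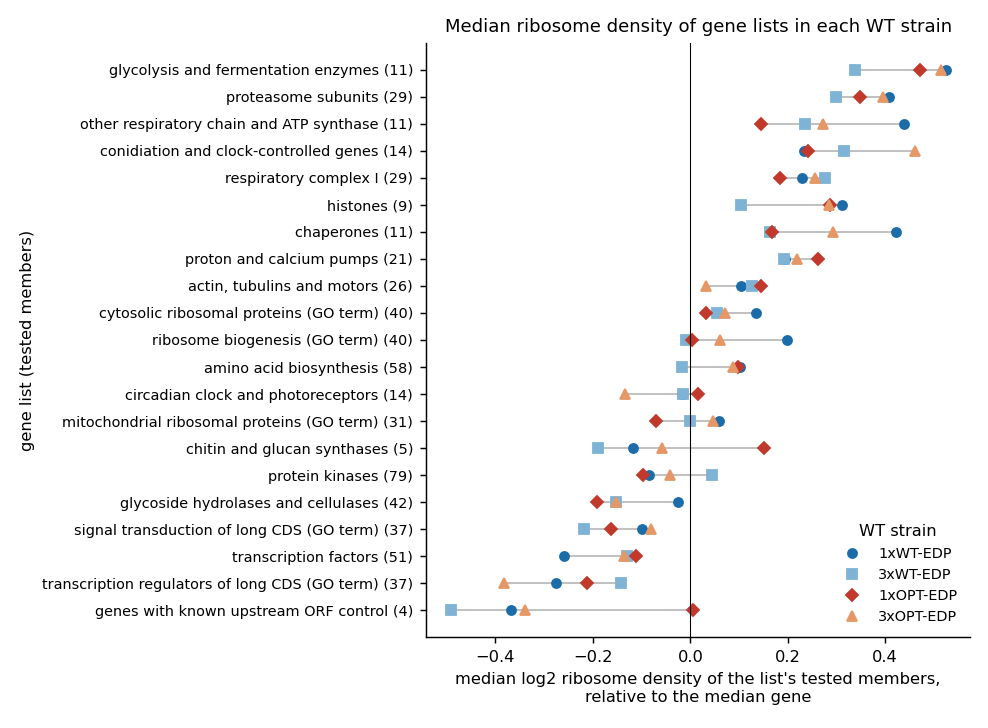
Median log2 ribosome density relative to the median gene (horizontal axis) of the tested members of 21 gene lists (vertical axis, number of tested members in brackets) in each of the 4 WT strains (symbols), with grey lines over their range. Glycolysis and the proteasome lie highest, with strain medians of 0.34 to 0.52 and 0.30 to 0.41, and the lists of transcription regulators and of genes with uORFs lie lowest.

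Clock-controlled and conidiation genes divided. Of 14 tested members 6 were above the median in all 4 strains and 2 below, with a median of 0.26 that stayed positive in every alternative. On adjusted p alone ccg-14, ccg-16 and eas were higher, while ccg-6 was called lower. The conidiation gene con-10 had 5.03, 5.53, 9.29 and 6.09 ppm of RPF in the 4 strains but an mRNA read in the 3xWT-EDP library alone (17.3 ppm, 4.5 reads), so no fold is given. Among clock genes and photoreceptors, 14 in all, the median was 0.03, and it was negative without centring, with FPKM, from replicate 3 alone and without the 1xOPT-EDP strain. The blue-light photoreceptor gene vvd was highest at 0.52 ± 0.12 (SD, n = 4) and the opsin gene nop-1 lowest at -0.80 ± 0.74, from 7.88 mRNA reads.

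Lists of regulatory genes held low calls in unequal numbers, to be read against 2.39% of all tested genes. Of 51 transcription factors 4 were called lower (vad-6 at -2.04, bek-2 at -1.40, tah-3 at -1.14 and tah-4 at -1.13) and 0 higher, 17 were below the median gene in all 4 strains, against 19.1% of all tested genes, and 11 above. Their median was -0.08. The nitrogen regulator nit-2 had a log2 density of -0.68 ± 0.14 (SD, n = 4; limma adjusted p = 0.0435). Of 79 protein kinases 1 was called lower, prk-8 at -1.05 ± 0.29, 25 were below the median in all 4 strains and 17 above, and the median was -0.00, positive in 5 alternatives, replicate 3 alone among them. The RPF levels of prk-8 were 20.9, 22.9, 22.2 and 20 ppm against 57.7, 53.1, 41.2 and 60.1 ppm of mRNA. The highest kinase was camk-3 at 0.72 ± 0.57.

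Genes listed by symbol as glycoside hydrolases and cellulases were at low mRNA levels in glucose. Only 42 of 85 listed genes were tested, with a median mRNA of 17.4 ppm. Of these, 5 were called lower (gh61-9, gh35-1, gh47-7, gh13-6 and gh13-1, at -2.48 to -1.13) and 0 higher, 13 were below the median gene in all 4 strains and 2 above. Their median was -0.04, and it was above 0 among members with at least 50 reads. Of 37 transcription regulators that the study grouped for long CDS together with non-optimal codon usage, 3 were called lower, NCU06521 lowest at -1.65. The median of this list was -0.18, with 13 below the median gene in all 4 strains against 2 above. Of 37 signal transduction genes grouped likewise, 3 were called lower, Rsp lowest at -1.61, with a median of -0.07. The medians of both long-CDS lists were negative in every alternative. In all, 17 of 558 tested list genes were called, against 2.43% of all tested genes.

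The lists of the cytoskeleton and the cell wall were mixed. Among 26 genes of actin, tubulins and motors 12 were above the median in all 4 strains and 8 below, 2 passed on adjusted p alone, both lower, and the median was 0.10, which is negative without centring. The dynactin gene ro-3 was lowest at -0.95 and the γ-tubulin gene tbg highest at 0.47. Among 5 chitin and glucan synthases the median was 0.02, a value that changed sign in 7 alternatives, with do, a glucan synthase gene, lowest at -0.28 ± 0.06 (SD, n = 4) and chs-1 highest at 0.25 ± 0.12.

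In 4 genes known for translational control by uORFs, the densities on the main CDS were within 2-fold of the median gene. The gene arg-2, whose uORF peptide stalls ribosomes in arginine, had 259, 258, 261 and 257 ppm of RPF against 254, 285, 250 and 221 ppm of mRNA, a log2 density of 0.28 ± 0.18 (SD, n = 4; limma adjusted p = 0.173). The GCN4-type activator gene cpc-1 had 544, 577, 665 and 642 ppm against 858, 913, 742 and 914 ppm, a log2 density of -0.26 ± 0.24 (adjusted p = 0.243 by limma). The ornithine decarboxylase gene spe-1 had -0.35 ± 0.22 (limma adjusted p = 0.140). The clock gene frq had 18.2, 21.5, 20.7 and 21.7 ppm against 36.7, 34.6, 37.8 and 35.3 ppm, a log2 density of -0.58 ± 0.13 (limma adjusted p = 0.0477), the only one of the 4 past the threshold. Reads on the uORFs themselves are not part of these values. The kinase gene cpc-3 had 12.1 to 14.3 ppm of RPF over 12 libraries and 18.2 to 26.2 ppm of mRNA, a log2 density of -0.46 ± 0.22 (limma adjusted p = 0.0887).

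Each reporter was measured in 1 strain, so its density has no replicate check against mRNA. The 1x and 3x WT-EDP reporters had log2 densities of 0.27 and 0.18, above those of 71.6% and 65.1% of tested genes, from 81 and 127.5 mRNA reads. The WT-EDP sequence keeps the codons of the endogenous NCU05784, and the part of that gene's reads in these values was not tested. The 1x and 3x OPT-EDP reporters had -0.41 and -0.09, above 22.4% and 43.0% of tested genes, from 38.5 and 195.5 mRNA reads. NCU16635, the short CDS that differed between replicates, had a log2 density of -0.37 with all replicates, -0.20 without replicate 3 and -1.35 from replicate 3 alone.

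Density decreased with CDS length in all 4 strains. Genes in the longest quintile, with a CDS of at least 2340 nt, had a median log2 density of -0.17, and genes in the shortest quintile, of at most 795 nt, had 0.20 (means of 4 strains). The difference was -0.37 ± 0.067 (SD, n = 4), with -0.47, -0.32, -0.35 and -0.33 in the 1xWT-EDP, 3xWT-EDP, 1xOPT-EDP and 3xOPT-EDP strains. The exact two-sided sign-flip permutation test gave p = 0.13, the smallest value that 4 strains allow, so the design cannot reach 0.05. By deciles of length the median passed through 0.21 (390 nt), 0.12 (912 nt), 0.02 (1284 nt), -0.09 (1755 nt) and -0.10 (2655 nt) to -0.21 (3825 nt). Spearman's coefficient between length and density across genes, a description over genes that are not replicates, was -0.31 to -0.22 in the 4 strains. The step was kept in the 2553 deeper genes (difference -0.35) and by RPF replicate, at -0.37, -0.39 and -0.28 for replicates 1, 2 and 3. The mRNA level also decreased along the deciles, with a median of 93.4 ppm in the shortest and 18.4 ppm in the longest, and its part in the trend was not tested. The values depend on which deposited column is used, since the FPKM column gave -0.50 ± 0.075.

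**Figure D5:**
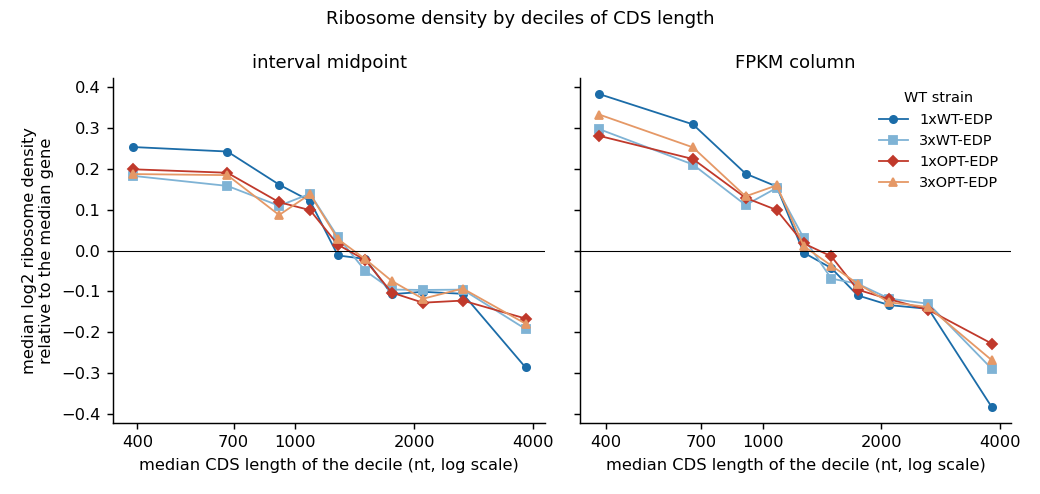
Median log2 ribosome density relative to the median gene (vertical axis) in 10 groups of genes ordered by CDS length (horizontal axis, median length of the group in nt, log scale) for the 4 WT strains. The left panel uses the interval midpoint and the right panel the FPKM column. In both panels the lines start above 0 for short CDS and end below 0 for long CDS, with means over strains of 0.21 to -0.21 on the left and 0.32 to -0.29 on the right.

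The spread of log2 ribosome density across genes was narrower in the WT strains than in the Δcpc-3 strains. Across 2512 genes with at least 50 reads in both hosts, the SD of log2 density was 0.406 ± 0.019 in WT and 0.759 ± 0.0074 in Δcpc-3 strains (SD, n = 4 each; exact two-sided permutation p = 0.0286, the smallest possible for 4 against 4). The longest minus the shortest quintile was -0.38 ± 0.065 in WT and -1.10 ± 0.055 in Δcpc-3 strains, a difference of 0.72 (exact permutation p = 0.0286). The densities of single genes in the 2 hosts correlated at r = 0.85 across these genes. The ratio of FPKM to interval midpoint for long CDS also differed in RPF, at 0.905 to 1.01 in WT and 0.682 to 0.912 in Δcpc-3 libraries, and its part in the host difference was not tested. The labels do not say whether the libraries of both hosts were made together, so host and preparation cannot be told apart. In mRNA the deleted gene, cpc-3, had 18.2 to 26.2 ppm in WT and 0.407 to 1.27 ppm in Δcpc-3 strains.

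For single genes limma called 207 of 6979 (2.97%) higher and 72 (1.03%) lower in WT than in Δcpc-3 strains at an adjusted p below 0.05 and 2-fold. With the reporter as a block, 66 were higher and 22 lower. Genes higher in WT had a median CDS of 1716 nt and genes lower in WT one of 474 nt. Of 162 genes called lower than the median gene in WT and tested here, 159 also had a mean below 0 in Δcpc-3 strains. There too 0 is the median gene, so the shared sign does not mean an equal density. Of the same 162 genes 53 were called different between the hosts, against 4% of all 6979 tested genes. Of the 10 lowest genes named above 5 were less low in WT, such as NCU05404 with means of -3.62 in WT and -5.95 in Δcpc-3 strains (difference 2.33, limma adjusted p = 5.72e-04) and NCU03600 with -2.99 and -4.99. In contrast csr-1 had -4.06 in WT and -4.30 in Δcpc-3 strains, a difference of 0.24 (limma adjusted p = 0.370). The well-covered genes of largest difference were ncw-2, with a mean of -1.63 in WT and -4.69 in Δcpc-3 strains, and in the other direction NCU10040, with -0.32 and 1.43. The genes with the largest RPF shares lay less far above the median in WT: NCU06110 had 0.57 in WT and 1.18 in Δcpc-3 strains (difference -0.61, limma adjusted p = 0.00690) and nmt-1 had 0.59 and 1.23 (difference -0.64).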

How the data were processed

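RPF and mRNA values were taken from 33 deposited tables, 1 per library. The authors mapped reads to CDS regions and deposited FPKM with interval bounds, and read coverage as a signal that was not used here; their processing notes name Bowtie2 and Cufflinks, without versions. The genome build is not given in the sources used here. The deposited bounds fell on whole reads (tolerance 0.05) in 100% of values, which gave reads to the nearest 0.5, used for depth only. The interval midpoint was scaled to a sum of 1000000 per library (ppm), since FPKM of short CDS departs from it. RPF replicates of a strain were merged with weights by reads, as the study merged them. Density was log2((RPF + 0.1)/(mRNA + 0.1)), which understates changes of low genes, centred per strain on the median tested gene.

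The 4 reporter strains served as replicates, so p-values measure the spread between strains. RPF and mRNA were matched because they come from the same strain: deviations correlated with r = 0.07 to 0.50 within strains and -0.41 to 0.22 between. Genes were tested with limma (3.58.1, under R 4.3.3), p-values being adjusted across every tested gene after Benjamini and Hochberg, in code tested on simulated data; summaries were compared by exact permutation. Python 3.11.15, numpy 2.4.6, pandas 2.3.3, scipy 1.17.1 and matplotlib 3.10.9 were used. Gene symbols came from the RefSeq table of assembly NC12, in which 9728 genes were found.

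Named genes were the 10 highest and 10 lowest called genes with 1 sign in all strains and at least 50 reads everywhere (no higher gene qualified), the highest and lowest member of each list, the 10 largest RPF shares, and cpc-1, arg-2, spe-1, frq, cpc-3, the reporters and NCU16635. The members and the 24 lists were chosen with earlier results of these data known. Lists were built from gene symbols, since no gene descriptions were at hand, and 5 of them from a table of the study that shows at most 40 genes a term. The study grouped the genes of that table by codon usage and CDS length. Alternatives were another test, column, pseudocount, minimum, centring, merging and scaling, and leaving out each replicate and strain.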

Additional observations from a re-analysis of the deposited data

Results flagged for a closer look

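Of 95 gene densities, list medians and summaries over the 4 WT strains, 12 had 1 strain far from the other 3. Chance alone gives about 1 in 20 among values that were not selected. Genes named as the highest or lowest of a list favour a stray strain, so the count cannot be compared with that rate. In 5 genes the stray value is a log2 density from mRNA with 0 reads in some library, so it depends on the pseudocount. These were hsp30 at 4.17 in 1xWT-EDP, gh61-3 at 5.80 in 1xWT-EDP, poi-2 at 4.80 in 1xOPT-EDP and bek-1 at 6.30 in 3xOPT-EDP, where the stray strain had no mRNA read, and con-10 at -1.45 in 3xWT-EDP, the only strain with one. In 3 covered genes the 3xWT-EDP strain stood out: NCU06521 at -1.26 against -1.83 to -1.75 in the other strains, cpc-3 at -0.79 against -0.38 to -0.34, and vma-3 at 0.29 against 0.44 to 0.47. The same strain had the lowest median of amino acid biosynthesis, -0.016 against 0.087 to 0.10, and of histones, 0.10 against 0.29 to 0.31. The 1xWT-EDP strain had the lowest median of transcription factors, -0.26 against -0.14 to -0.11, and the steepest length difference, -0.47 against -0.35 to -0.32.

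Of 68 named genes tested between hosts, 9 differed in log2 density by limma past 2-fold, all higher in WT than in Δcpc-3 strains. The differences, WT minus Δcpc-3, were 2.33 for NCU05404, 2.16 for NCU00545, 2.00 for NCU03600, 1.93 for NCU02637, 2.86 for gh61-9, 1.00 for NCU06521, 1.19 for Rsp, 1.11 for prk-8 and 1.03 for cpc-3. With the reporter as a block the adjusted p was 0.0300 for NCU02637 and gh61-9, 0.0349 for NCU05404 and NCU03600 and 0.0495 for NCU06521. It missed the threshold for NCU00545 (0.0539), prk-8 (0.0555), cpc-3 (0.0883) and Rsp (0.120). The value of cpc-3 in Δcpc-3 strains rests on 2.5 to 8.5 mRNA reads and 0 to 6 RPF reads.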

How the results depend on the processing

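The count of 168 departures from the median gene stayed within 1.5 times under 11 alternatives, from 112 (replicate 3 alone) to 236. It was 43 with an ordinary Student test, 52 with a minimum of 10 ppm, 283 with no minimum and 357 without centring. With centring it was 350 on adjusted p alone and 47 in genes of at least 50 reads. Without 1 replicate or strain it was 0 to 172 (0 to 5 without a strain). With no replicate block, that is RPF and mRNA unmatched, it was 236. Between hosts, 279 became 88 with the reporter as a replicate block, 120 with a minimum of 10 ppm, 528 without centring and 984 on adjusted p alone. The strains of the 2 hosts share only a reporter (deviations correlated at -0.10 to 0.02). Of list genes, 17 called became 6 with the Student test, 7 with the minimum of 10 or with at least 50 reads, 28 without centring and 0 without any 1 strain. The Spearman coefficient of -0.26 became -0.35 (FPKM), -0.19 (replicate 3 alone), -0.40 (at least 50 reads) and -0.21 (Pearson, log10 length). The spread across genes of 0.952 became 0.85 (FPKM), 0.749 and 0.664 (pseudocounts of 0.5 and 1), 0.578 (minimum 10), 1.38 (no minimum) and 0.422 (at least 50 reads). The cause was not tested where fewer genes or strains do not show it. No called named gene, length difference or Spearman coefficient reversed under the alternatives run for it, but the medians of 14 of 24 lists changed sign in at least 1 alternative and those of 10 did not. Leaving out the centring lowers all lists alike, so small positive medians change sign there by the shift itself. For complex I, histones, pumps, and actin, tubulins and motors it was the only such alternative. The 50-read limit was chosen after seeing the data. The mRNA depth limits most densities.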
